A study of Mus musculus with 8 samples.

Results

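The subunits of the mitochondrial respiratory chain and of ATP synthase were followed in the liver of 9-month-old Wrn mutant mice. Members were all features whose single gene symbol began with Nduf followed by a, b, c, s or v and a number (complex I), was Sdha to Sdhd (complex II), or began with Uqcr (complex III), Cox4 to Cox8 (complex IV) or Atp5 (complex V). The rule used names and no measured value. It found 113 of the 45220 features on the array, which stand for 82 of the 19087 named genes. Complex I had 35 genes, complex II 4, complex III 8, complex IV 18 and complex V 17. 22 genes had several features, which were averaged, and 60 had 1.

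The respiratory chain sits in the inner mitochondrial membrane. Complexes I and II take electrons from NADH and succinate, ubiquinone carries them to complex III, and cytochrome c carries them on to complex IV, which reduces oxygen. Complexes I, III and IV pump protons, and ATP synthase, complex V, uses the proton gradient to make ATP. Every subunit of complex II is encoded in the nucleus and the complex also works in the citric acid cycle, whereas the other complexes mix nuclear and mitochondrial subunits. Hepatocytes are rich in mitochondria and use them for fatty acid oxidation, gluconeogenesis and the urea cycle. The symbol rule takes in a few genes whose place is less plain. Ndufa4 is now assigned to complex IV, and Cox7a2l is a factor of respiratory supercomplexes. The rule leaves out Cyc1, cytochrome c1 of complex III.

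Each of 8 two-colour Agilent arrays paired liver RNA of a mouse with a mutant form of Wrn, a RecQ helicase that unwinds DNA, with that of a wild type animal. The strain was C57Bl/6 in both channels. 4 arrays held untreated mutants and 4 held mutants given vitamin C, at a dose and for a time that the sources used here do not give. There was no vitamin C treated wild type group, and wild type number 1, 2, 3 or 4 was named on 1 array of each mutant group. Replicates 3 and 4 of each group were dye-swapped, so that mutant RNA was Cy5 on replicates 1 and 2 and Cy3 on the other two. The sources used here give neither the exact lesion of Wrn nor the sex of the mice.

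The deposited values were log ratios of unstated base, treated as log2. They were taken as mutant over wild type on every array. The sources do not settle whether the dye-swapped arrays had been turned, nor which RNA is the numerator, so the direction is not settled. Titles of unswapped arrays and the series title put the mutant first, while titles of swapped arrays put wild type first. Within groups, arrays of the same dye order correlated at 0.04 to 0.18, and those of opposite order at -0.14 to 0.06. As deposited, 371 genes had an adjusted p under 0.05 in limma for a dye coefficient and 0 for either mutant group. With the swapped arrays turned, 1 gene passed for the dye coefficient, 9 for untreated and 10 for treated mutants. Which reading is right was not tested. An earlier count of changed genes near Wrn chose the reading as deposited. It was made on these same data, so it is no independent support for that reading. If the numerator is wild type, every higher and lower value below changes places. If the swapped arrays still have to be turned, the results of all 3 comparisons change. The values so read are given for the complexes and for some members, beside the main ones and at the end. Other mitochondrial genes and cell markers are given as deposited only. Wrn itself stood at 0.19 ± 0.10 (SE, n = 4) in untreated and 0.16 ± 0.10 in treated mutants over 4 features, and checks no label. Over all features the array medians ranged from -0.0053 to 0.0049. The table held no intensities. Bulk liver RNA cannot tell fewer cells of a type from less RNA per cell.

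The median of the 82 genes differed from array to array more than that of all named genes. Their median log ratio on untreated arrays 1 to 4 was -0.014, -0.18, 0.069 and 0.01, with 38, 15, 48 and 42 genes above 0. On treated arrays 1 to 4 it was 0.10, -0.033, 0.29 and 0.058, with 55, 35, 73 and 49 genes above 0. The median of all named genes stayed between -0.012 and 0.013 on every array. Replicate 2 was the lowest array and replicate 3 the highest in both groups, so the groups overlapped. The arrays that share a number share a wild type number too, and which animal moved was not tested.

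**Figure D1:**
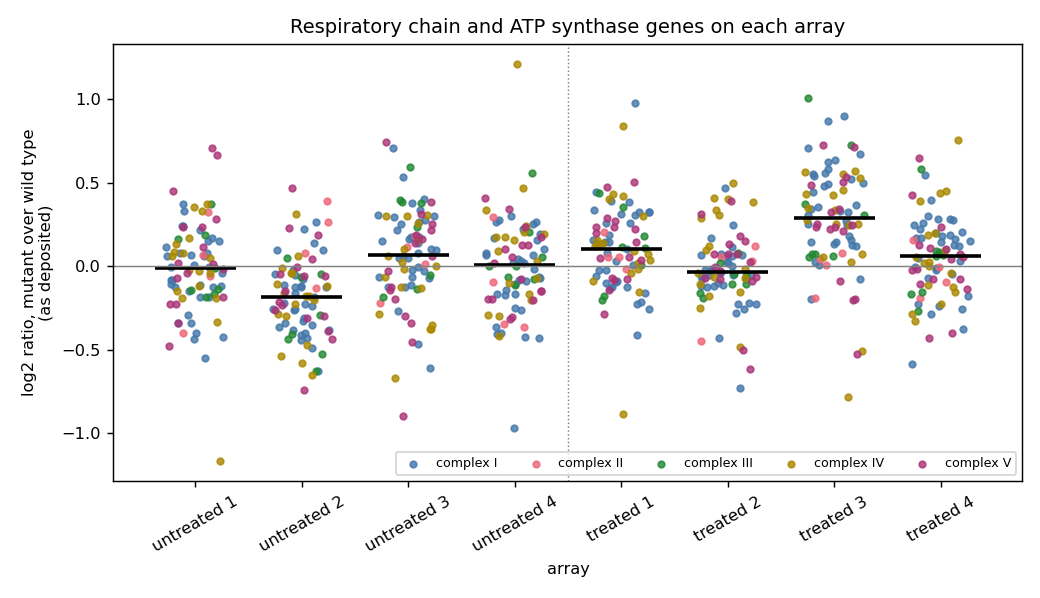
Log2 ratio of each of the 82 genes (points, coloured by complex) on each of the 8 arrays (horizontal axis), as deposited and read as mutant over wild type, with the median of the 82 genes as a black bar. The medians of replicate 2 are the lowest and those of replicate 3 the highest in both groups, from -0.18 on untreated replicate 2 to 0.29 on treated replicate 3.

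The first comparison asked whether untreated mutants differed from wild type. The 82 genes centred close to 0, with a median of -0.045 (0.969-fold), 33 genes above 0 and 49 below. Among all named genes 46.7% lay above 0, with a median of -0.012. No member passed limma's test at an adjusted p under 0.05 (0 of 19087 genes passed, a background of 0%), and members reached 0.535 at best. An unadjusted p under 0.05 was found for 1 member above 0, where the background was 3.14%, and 1 below, where it was 4.65%. Counts of 1 are too small to set the members apart from the background. With the swapped arrays turned, 4 members above 0 (background 5.77%) and 10 below (4.35%) had an unadjusted p under 0.05 in limma.

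The member above 0 was Cox7a2l, the supercomplex factor. Its log ratio was 0.33, 0.31, 0.30 and 0.34 on untreated arrays 1 to 4, a fit of 0.32 ± 0.10 (unadjusted p = 0.00871). These arrays lay closely together and all above 0. The member below 0 was Atp5md, a small membrane subunit of ATP synthase also called DAPIT. It read -0.34, -0.27, -0.90 and -0.20, a fit of -0.43 ± 0.15 (unadjusted p = 0.017), all below 0 with replicate 3 the farthest. Below 0 next stood Ndufb8, a membrane arm subunit often used to judge complex I content, at -0.19 ± 0.10 and Cox7c, a small subunit of complex IV, at -0.20 ± 0.10. Ndufb6, also of the membrane arm, stood at -0.25 ± 0.13, Ndufa4 at -0.20 ± 0.11 and Ndufv2, an iron-sulphur subunit of the NADH arm, at -0.18 ± 0.10. Above 0 stood Atp5g3, which encodes subunit c of the membrane rotor, at 0.23 ± 0.13, and Uqcr10, a small subunit of complex III, at 0.20 ± 0.14. Ndufs1, the largest iron-sulphur subunit of complex I, was at 0.18 ± 0.13, Atp5o, which ties the stalk to the catalytic head, at 0.18 ± 0.14 and Atp5h, a stalk subunit, at 0.12 ± 0.11. None of these reached an unadjusted p under 0.05 apart from Cox7a2l and Atp5md.

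By complex, the median in untreated mutants was -0.066 for complex I, 0.061 for complex II, 0.03 for complex III, -0.057 for complex IV and 0.004 for complex V. Complex I had 12 of 35 genes above 0 and complex IV 4 of 18, while complex II had 3 of 4, complex III 5 of 8 and complex V 9 of 17. The lowest and highest genes were Ndufb6 and Ndufa3 (0.19) in complex I, Sdhb (-0.17) and Sdhd (0.069) in complex II, and Uqcrq (-0.19) and Uqcr10 in complex III. In complex IV they were Cox8c (-0.36), an isoform of testis, and Cox7a2l, and in complex V Atp5md and Atp5g3. Leaving out arrays, the medians of complexes I and IV ran from -0.106 to -0.001 and from -0.126 to -0.003, and that of complex II from 0.015 to 0.061. Complex III ran from -0.076 to 0.103 and complex V from -0.031 to 0.016, both below 0 without untreated replicate 1 or 3. With the swapped arrays turned the medians were -0.114, 0.081, -0.115, -0.023 and 0.006 for complexes I to V. The values of single genes are to be read against a median SE of 0.109 per gene. Of the core subunits, Ndufv1, which binds NADH, stood at -0.19 ± 0.12 and Atp5a1, of the catalytic ring of ATP synthase, at -0.13 ± 0.092. Atp5b of the same ring was at 0.06 ± 0.092. Cox4i1 and Cox5a of complex IV stood at -0.10 ± 0.12 and -0.012 ± 0.097. Sdha of complex II stood at 0.068 ± 0.12, and Uqcrc1 and Uqcrfs1 of complex III at -0.11 ± 0.09 and 0.026 ± 0.11.

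Mutants given vitamin C were next compared with wild type. Most members stood slightly above 0, with 62 of 82 genes above 0 where 51.1% of all named genes did. Their median was 0.105 (1.08-fold) against 0.004 for all named genes. No member passed the adjusted threshold (background 0% of all genes), and the best member had an adjusted p of 0.637. An unadjusted p under 0.05 was found for 7 members above 0, 8.54% of the 82 against a background of 3.73%, and for 0 below, against 3.37%. The 7 were Cox7a1, Uqcr10, Cox7a2l, Atp5h, Ndufs6, Ndufb2 and Ndufs4. The count rests on single arrays, as it was 2 without treated replicate 1 and 1 without treated replicate 3. The median was 0.051 without treated replicate 3 and 0.067 without both arrays of number 1.

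Cox7a1, the muscle and heart isoform of a complex IV subunit, read 0.43, 0.50, 0.57 and 0.02 on treated arrays 1 to 4 (fit 0.38 ± 0.12, unadjusted p = 0.00915). All 4 arrays were above 0, with replicate 4 near it. Untreated arrays read -0.12, -0.01, 0.16 and 0.17, overlapping with treated replicate 4 alone. Uqcr10 read 0.35, -0.16, 1.01 and 0.58 (fit 0.45 ± 0.14, unadjusted p = 0.0103), with replicate 2 below 0 and replicate 3 far above the rest. Cox7a2l read 0.30, 0.41, 0.05 and 0.45 (fit 0.30 ± 0.10, unadjusted p = 0.0113). Cox7a2l was thus above 0 on all 8 arrays as deposited, on which the groups share wild type numbers, and its treated over untreated difference was -0.015 ± 0.14. Atp5h read 0.48, 0.07, 0.50 and 0.23 (fit 0.32 ± 0.11, unadjusted p = 0.0143), above 0 on all treated arrays. Its 2 features differed in the treated over untreated difference, at 0.11 and 0.30. With the swapped arrays turned, Cox7a2l stood at 0.001 in untreated and 0.051 in treated mutants (unadjusted p = 0.989 and 0.614). Uqcr10 then stood at -0.349 in treated mutants (unadjusted p = 0.0453), Atp5h at -0.048 and Cox7a1 at 0.087.

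Of the complex I genes, Ndufs6 and Ndufs4, accessory subunits at the base of the NADH arm, stood at 0.32 ± 0.11 (unadjusted p = 0.0205) and 0.26 ± 0.10 (unadjusted p = 0.035). Ndufs6 read 0.38, -0.03, 0.63 and 0.28 on treated arrays 1 to 4, and Ndufs4 read 0.31, 0.07, 0.37 and 0.28. For both, replicate 2 was the lowest treated array. Loss of Ndufs4 in mice causes a disease like human Leigh syndrome. Ndufb2, of the membrane arm, read 0.39, -0.02, 0.48 and 0.30 (fit 0.29 ± 0.10, unadjusted p = 0.0205), again lowest on replicate 2. Turned, Ndufs6 stood at -0.141, Ndufs4 at -0.067 and Ndufb2 at -0.104 in treated mutants, with unadjusted p of 0.289, 0.585 and 0.379. Below 0 the smallest p belonged to Ndufa10 at -0.21 ± 0.10, a subunit related to nucleoside kinases that read -0.21, -0.05, -0.20 and -0.38. It was followed by Uqcrq at -0.11 ± 0.10, Ndufs3, a core subunit, at -0.10 ± 0.10, Atp5md at -0.14 ± 0.15, Cox6a2 at -0.14 ± 0.17 and Ndufv1, which binds NADH, at -0.078 ± 0.12. None of these reached an unadjusted p under 0.05.

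The start regions of 4 of these genes are shown because Ndufs6, Ndufs4, Atp5h and Cox7a1 were among the 7, and because they differ in motifs of factors known to act on respiratory genes. Each sequence runs from 250 bases before to 50 bases after the gene's start in RefSeq on GRCm38.p6, read along the gene. Capitals mark matches on either strand to GCGCANGCG (NRF1), CCGGAAG (the core bound by ETS factors such as GABP) and AAGATGGC (YY1).
Ndufs6 promoter, chr13:73328433-73328732, minus strand: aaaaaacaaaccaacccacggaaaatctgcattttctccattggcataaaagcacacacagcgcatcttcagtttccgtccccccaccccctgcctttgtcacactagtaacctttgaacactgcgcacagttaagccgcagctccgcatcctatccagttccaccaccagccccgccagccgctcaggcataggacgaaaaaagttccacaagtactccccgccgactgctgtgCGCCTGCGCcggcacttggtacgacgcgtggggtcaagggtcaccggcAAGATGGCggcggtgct
Ndufs4 promoter, chr13:114388045-114388344, minus strand: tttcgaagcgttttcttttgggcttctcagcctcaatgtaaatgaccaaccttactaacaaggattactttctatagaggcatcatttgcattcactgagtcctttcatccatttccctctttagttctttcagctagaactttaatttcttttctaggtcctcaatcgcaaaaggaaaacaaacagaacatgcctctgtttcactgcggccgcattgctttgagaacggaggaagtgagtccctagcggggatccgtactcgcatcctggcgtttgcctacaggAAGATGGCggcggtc
Atp5h promoter, chr11:115419870-115420169, minus strand: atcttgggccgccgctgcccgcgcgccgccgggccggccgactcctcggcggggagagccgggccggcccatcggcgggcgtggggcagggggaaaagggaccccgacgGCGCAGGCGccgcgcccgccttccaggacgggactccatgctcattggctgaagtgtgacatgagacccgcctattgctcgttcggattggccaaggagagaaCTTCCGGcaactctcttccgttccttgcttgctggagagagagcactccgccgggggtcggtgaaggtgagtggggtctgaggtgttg
Cox7a1 promoter, chr7:30183921-30184220, plus strand: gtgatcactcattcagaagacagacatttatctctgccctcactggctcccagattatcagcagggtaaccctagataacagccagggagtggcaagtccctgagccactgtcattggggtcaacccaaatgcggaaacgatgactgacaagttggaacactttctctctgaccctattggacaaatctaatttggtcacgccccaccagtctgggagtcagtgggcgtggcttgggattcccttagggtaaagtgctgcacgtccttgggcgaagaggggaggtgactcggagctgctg
In Ndufs6 the NRF1 letters lay at bases 236 to 244 of the 300 and the YY1 letters at bases 284 to 291. Ndufs4 had only the YY1 letters, at bases 286 to 293. Atp5h had NRF1 letters at bases 110 to 118 and ETS letters, in reverse, at bases 213 to 219. Cox7a1 had no match of these letters in this window.

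A start region was listed for 68 of the 82 genes. The NRF1 letters were in 20 of the 68 (29.4%), against 7.03% of 27025 genes with a listed region. The ETS letters were in 17 of the 68, against 9.93% of those genes, and the YY1 letters in 10 (14.7%, against 3.19%). GGGGCGGGG, a motif of Sp1, was in 11 (16.2%, against 12.9%). The treated over untreated difference had a median of 0.11 in members with the NRF1 letters and 0.18 in the others. For the ETS letters these medians were 0.21 and 0.14, and for the YY1 letters 0.12 and 0.17. The NRF1, ETS and YY1 letters were thus in a larger share of members than of all listed genes. The differences between members with and without a match were not tested.

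Complex by complex, the treated mutants had a median of 0.128 over wild type for complex I (31 of 35 genes above 0), 0.112 for complex IV (13 of 18) and 0.088 for complex V (13 of 17). Complex III stood at 0.052 (4 of 8) and complex II at -0.027 (1 of 4). The lowest and highest genes were Ndufa10 and Ndufs6, Sdhc (-0.058) and Sdhd (0.074), Uqcrq and Uqcr10, Cox6a2 and Cox6b2 (0.42 ± 0.24), and Atp5md and Atp5h. The core subunits differed among themselves. Sdha and Sdhb, the flavin and iron-sulphur subunits of complex II, stood at -0.026 ± 0.12 and -0.028 ± 0.11. Uqcrc1 of complex III stood at -0.002 ± 0.090 and Uqcrfs1, its Rieske iron-sulphur subunit, at 0.11 ± 0.11. Atp5a1 and Atp5b, which form the catalytic ring of ATP synthase, were at -0.022 ± 0.092 and -0.003 ± 0.092, Cox4i1 at 0.12 ± 0.12 and Cox5a at 0.10 ± 0.10. Ndufs1 stood at 0.088 ± 0.13, Ndufs7 at 0.14 ± 0.098, Ndufs8 at 0.17 ± 0.096 and Atp5d of the central stalk at 0.19 ± 0.085. With the swapped arrays turned the complexes changed order, and the median was -0.12 for complex I (7 of 35 genes above 0), 0.063 for complex II, -0.083 for complex III, -0.04 for complex IV and -0.036 for complex V. Leaving out arrays, complex I ran from 0.066 to 0.19, complex II from -0.027 to 0.015, complex III from -0.008 to 0.121, complex IV from 0.081 to 0.165 and complex V from 0.015 to 0.129. Complex II was above 0 without treated replicate 2 (0.015), and complex III below 0 without both arrays of number 3 (-0.008).

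The third comparison set treated against untreated mutants. As deposited, most members stood higher in the treated mice. The difference was above 0 for 68 of 82 genes, where 53.7% of all named genes were, and its median was 0.142 (1.10-fold) against 0.017. The earlier report of these data had shown this shift for a list of respiratory genes, so it is no independent support. No member passed (background 0%), and every member had an adjusted p of at least 0.974. The median SE of a single member was 0.154. With the swapped arrays turned the median was 0.005, with 42 of 82 genes above 0. An unadjusted p under 0.05 was found for Atp5d and Ndufb6, 2 members (2.44%) above 0 against a background of 2.37%, and for 0 below, against 1.91%. The number of such members ran from 0 without treated replicate 3, or without both arrays of number 1, to 7 without untreated replicate 1. The median difference was 0.091 without treated replicate 3 and 0.204 without untreated replicate 1. With the wild type number as a replicate block 3 members reached that p, and none passed.

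Atp5d encodes the delta subunit in the central stalk that turns inside the catalytic head. Its log ratio was -0.19, -0.06, -0.13 and -0.20 on untreated arrays and 0.22, 0.18, 0.23 and 0.13 on treated arrays, a difference of 0.34 ± 0.12 (unadjusted p = 0.0211). All untreated arrays were below 0 and all treated ones above it. With the swapped arrays turned its difference was -0.008 (unadjusted p = 0.96), and that of Ndufb6 -0.017 (unadjusted p = 0.941). Ndufb6 read 0.37, 0.22, -0.61 and -0.97 on untreated and 0.97, 0.47, -0.08 and -0.59 on treated arrays, a difference of 0.44 ± 0.18 (unadjusted p = 0.034). Both groups were high on replicates 1 and 2 and low on the swapped replicates 3 and 4, and its dye coefficient was 0.54 (adjusted p = 0.0211 in limma). Ndufa8, Ndufa7, Ndufb8 and Ndufa11, accessory subunits of complex I, followed at 0.28 ± 0.13, 0.42 ± 0.19, 0.29 ± 0.13 and 0.28 ± 0.14. Below 0 stood Cox6a2, the muscle isoform, at -0.28 ± 0.24, Ndufa10 at -0.12 ± 0.14, Sdhc, a membrane anchor of complex II, at -0.11 ± 0.14, Atp5g3 at -0.11 ± 0.18, Sdha at -0.094 ± 0.16 and Uqcrc2 at -0.077 ± 0.15.

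The treated arrays lay wholly above the untreated arrays for 2 members, Atp5d and Ndufs8, a core iron-sulphur subunit, where the background was 1.21%, and wholly below for 0, where it was 1.04%. Ndufs8 read -0.11, -0.02, -0.07 and -0.17 on untreated and 0.44, 0.07, 0.03 and 0.12 on treated arrays (difference 0.26 ± 0.14). Arrays with the same number can also be set against each other, since their labels name the same wild type number. Whether the RNA was the same is not stated. The treated array was the higher one on 4 of 4 numbers for 28 of 82 members, against a background of 9.17%, and the lower one on 4 of 4 for 1 member, Atp5b, against 6.66%. 17 of the 28 were complex I genes, and the others were 5 of complex V, 4 of complex IV and 2 of complex III. Within numbers 1 to 4 the median difference of the members was 0.12, 0.19, 0.24 and 0.047, and 56, 66, 68 and 51 of them lay above 0. Number 4 gave the smallest shift. These counts also rest on the reading of the swapped arrays. Turned, the treated array was higher on 4 of 4 numbers for 1 member (background 5.72%) and lower for 5 (6.32%), and the treated arrays lay wholly above the untreated ones for 0 (0.927%). Members share arrays and animals, so these counts are not independent observations.

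**Figure D2:**
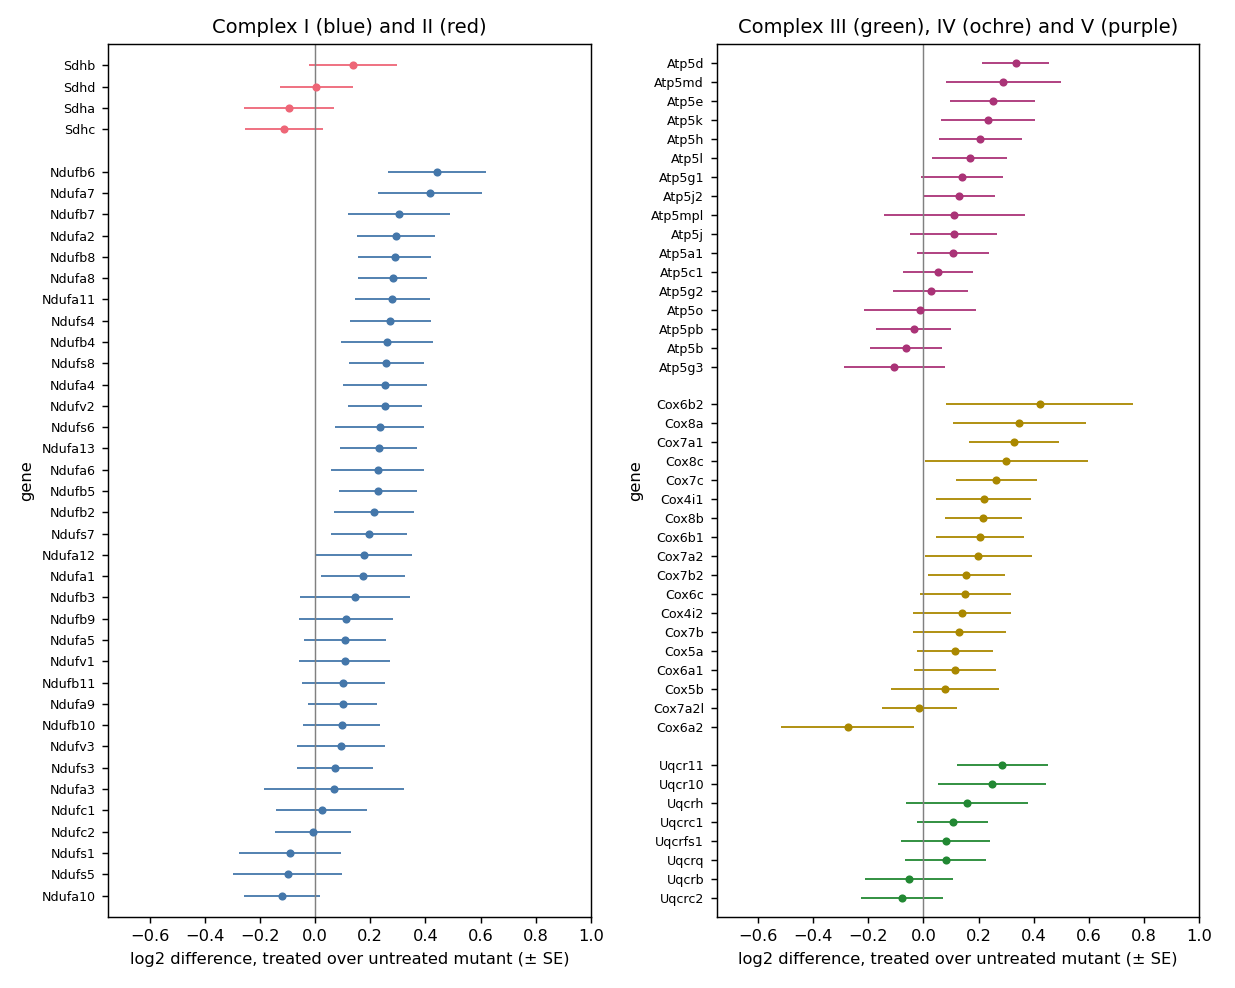
Treated over untreated difference on the log2 scale (horizontal axis, points with SE bars) for each of the 82 genes (vertical axis), grouped and coloured by complex, with complexes I and II on the left. 31 of 35 complex I and 16 of 18 complex IV genes lie above 0, while those of complex II spread from -0.11 to 0.14.

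Among the complexes, complex I had the highest median difference, 0.196 (31 of 35 genes above 0), followed by complex IV with 0.177 (16 of 18), complex V with 0.112 (13 of 17) and complex III with 0.094 (6 of 8). Complex II had a median of -0.044 with 2 of 4 genes above 0. It is also the smallest set, and its genes had a median SE of 0.15. The difference between complex II and the others was not tested. Within numbers 1 to 4 the median of complex I was 0.15, 0.19, 0.24 and 0.082 and that of complex II 0.017, -0.27, -0.11 and 0.13, so complex II was lower on numbers 1 to 3 and higher on number 4. The lowest and highest genes were Ndufa10 and Ndufb6, Sdhc and Sdhb (0.14), Uqcrc2 and Uqcr11 (0.29), Cox6a2 and Cox6b2 (0.42), and Atp5g3 and Atp5d. This order holds in the deposited reading alone. Turned, the medians were -0.017 for complex I (17 of 35 genes above 0), -0.058 for complex II, 0.052 for complex III, 0.043 for complex IV and -0.002 for complex V. Leaving out arrays, complex I ran from 0.123 (without treated replicate 3) to 0.261, complex II from -0.073 to 0.035, complex III from 0.035 to 0.186, complex IV from 0.117 to 0.236 and complex V from 0.064 to 0.168. Complex II lay above 0 without untreated replicate 2 (0.008), treated replicate 2 (0.024) or both (0.035). Per array, the complex I median was -0.041, -0.22, 0.10 and -0.019 in untreated and 0.10, -0.053, 0.34 and 0.15 in treated mutants, and the groups overlapped.

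**Figure D3:**
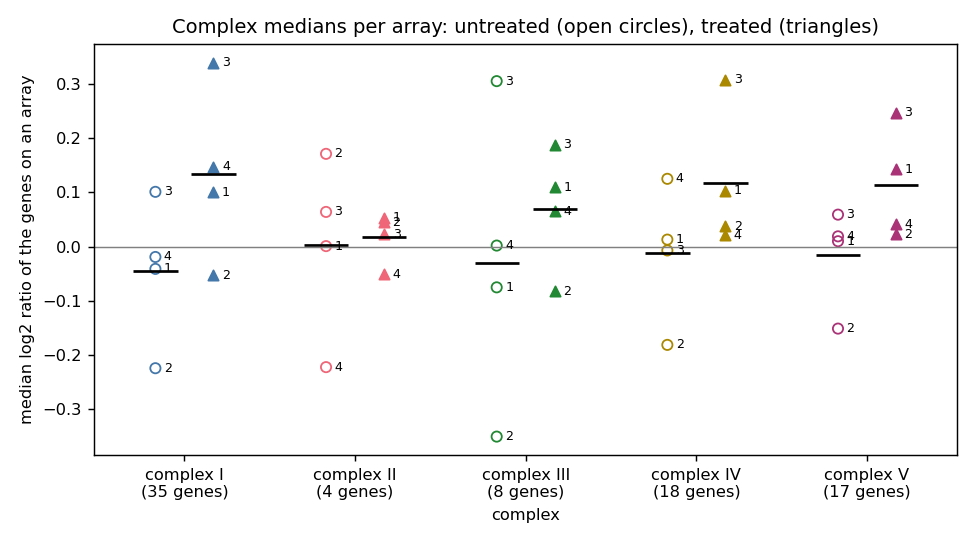
Median log2 ratio over wild type of the genes of each complex (vertical axis) on each array, with open circles for the 4 untreated and triangles for the 4 treated arrays, the replicate number beside each and the mean of the 4 medians as a bar. Replicate 2 is the lowest and replicate 3 the highest array for complex I in both groups, and the groups overlap in every complex.

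Within a complex, subunits of different roles were set side by side, in groups chosen after the values had been seen. The 6 measured core subunits of complex I, which carry flavin or iron-sulphur clusters or line the quinone site, had a median difference of 0.152, from -0.092 for Ndufs1 to 0.258 for Ndufs8. The 29 accessory subunits had a median of 0.213. In ATP synthase the 5 subunits of the catalytic head and central stalk had a median of 0.106, from -0.063 for Atp5b to 0.335 for Atp5d. The 12 others had 0.12. The groups were not tested against each other. Ndufv1 stood at 0.11 ± 0.17, Uqcrc1 at 0.11 ± 0.13, Uqcrfs1 at 0.081 ± 0.16, Cox5a at 0.12 ± 0.14 and Atp5a1 at 0.11 ± 0.13.

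Several subunits exist as isoforms that replace each other by tissue. Liver uses Cox6a1, Cox7a2 and Cox8a, and muscle Cox6a2, Cox7a1 and Cox8b. The liver forms stood at 0.12 ± 0.15, 0.20 ± 0.19 and 0.35 ± 0.24 in the treated over untreated difference, and the muscle forms at -0.28 ± 0.24, 0.33 ± 0.16 and 0.22 ± 0.14. The testis forms Cox6b2, Cox7b2 and Cox8c stood at 0.42 ± 0.34, 0.16 ± 0.14 and 0.30 ± 0.30, beside Cox6b1 at 0.21 ± 0.16. Cox4i1, the common form, stood at 0.22 ± 0.17 and Cox4i2, its form of lung, at 0.14 ± 0.18. The liver forms lay between 0.12 and 0.35. The muscle and testis forms spread from -0.28 to 0.42, but they are more genes, with SE up to 0.34, so the ranges cannot be compared. With no intensity given, it cannot be said whether their features were above background, and log ratios do not give levels. Against wild type, Cox6a2 stood at 0.14 ± 0.17 in untreated mutants, Cox8b at -0.11 ± 0.098 and Cox8a at -0.039 ± 0.17. In treated mutants Cox8a stood at 0.31 ± 0.17, Cox7a2 at 0.16 ± 0.14 and Cox4i2 at -0.031 ± 0.13. Without the muscle, testis and lung forms, 62 of 75 members lay above 0 with a median of 0.137. The genes for subunit c of the membrane rotor, Atp5g1, Atp5g2 and Atp5g3, stood at 0.14 ± 0.15, 0.026 ± 0.14 and -0.11 ± 0.18. Their proteins are alike in the mature part, so features may bind RNA of each other.

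For 6 of the 22 genes with several features the features disagreed in the sign of the treated over untreated difference. These were Atp5b, Atp5pb, Ndufc1, Ndufs5, Ndufv3 and Uqcrc1. Ndufs5 had features at -0.48 and 0.28, and Atp5b had features between -0.24 and 0.18. Ndufa7 (0.40 and 0.43), Uqcrh (0.15 and 0.16) and Ndufa1 (0.15 and 0.20) agreed closely. That spread between features is not part of the SE.

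Other mitochondrial genes were taken from lists chosen with earlier results of these data known. Assembly factors of complexes II to V lay above 0 for 24 of 33 genes in the treated over untreated difference (median 0.11) and those of complex I for 11 of 16 (0.065), where 53.7% of all named genes did. The leading genes were Cox14 at 0.29 ± 0.13 and Ndufaf3 at 0.53 ± 0.17 (unadjusted p = 0.0454 and 0.0122). Against wild type the leading genes were Ndufaf4 at -0.32 ± 0.11 and Cox11 at -0.29 ± 0.10 in untreated, and Ndufaf2 at 0.36 ± 0.12 and Cox15 at -0.33 ± 0.10 in treated mutants. Of the 16 measured enzymes of the citric acid cycle and pyruvate dehydrogenase, 7 lay above 0 between treated and untreated mutants (median -0.050), with Pdha1 at -0.32 ± 0.14, and 4 above 0 in treated mutants over wild type (median -0.091). Idh3a, a subunit of isocitrate dehydrogenase, stood at -0.46 ± 0.11 in untreated and -0.54 ± 0.11 in treated mutants, with unadjusted p of 0.00288 and 0.000968 and adjusted p of 0.445 and 0.5. It read -0.14, 0.025, -1.08 and -0.62 on untreated and -0.44, -0.27, -0.70 and -0.75 on treated arrays. Its lowest values were on the swapped replicates 3 and 4 of both groups, so its direction depends on how these arrays are read. No gene of these lists passed over all genes.

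Electron carriers had 9 of 18 genes above 0 between treated and untreated mutants (median 0.024), led by Coq9 of ubiquinone synthesis at 0.61 ± 0.18. This list also counts Cyc1, a complex III subunit that the symbol rule left out, at 0.20 ± 0.15. Coq9 stood at -0.44 ± 0.13 in untreated mutants. It read 0.46, 0.22, -1.38 and -1.07 on untreated and 0.72, 1.44, -0.69 and -0.80 on treated arrays. Its sign thus followed the dye in both groups, and its direction depends on how the swapped arrays are read. Dhodh led this list in treated mutants over wild type at -0.25 ± 0.14. Mitochondrial import and mass genes had 9 of 18 above 0 (median 0.014), with the mitochondrial chaperone gene Hspa9 at -0.31 ± 0.13. Mfn2, of mitochondrial fusion, was at -0.40 ± 0.14 in untreated and -0.45 ± 0.14 in treated mutants. It read 0.18, 0.61, -0.95 and -1.43 on untreated and -0.11, 0.51, -1.22 and -0.98 on treated arrays. The lowest values were on the swapped replicates 3 and 4 of both groups, so its direction depends on how these arrays are read. Carriers of nucleotides and protons had 4 of 12 above 0 (median -0.026), led by the ATP carrier gene Slc25a5 at -0.27 ± 0.13. Over wild type this gene led in treated mutants at -0.21 ± 0.091 and the transhydrogenase gene Nnt in untreated ones at 0.16 ± 0.11. Of the mitochondrial genome, COX2 and ND4L were measured. COX2 stood at 0.37 ± 0.16 in untreated and 0.21 ± 0.16 in treated mutants, and -0.15 ± 0.23 between them.

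Among 23 regulators, 13 lay above 0 between treated and untreated mutants (median 0.028), and 5 in treated mutants over wild type (median -0.068). Ppargc1a, the coactivator that drives mitochondrial gene programmes, read -0.45, -0.47, -0.56 and 0.10 on untreated and -0.38, -0.16, -0.64 and -0.51 on treated arrays. Its fits were -0.35 ± 0.13 and -0.42 ± 0.13 (unadjusted p = 0.0273 and 0.0106, adjusted p = 0.608 and 0.642). It was below 0 on 7 of 8 arrays in the deposited reading. Nrf1, the factor of the NRF1 motif, stood at -0.25 ± 0.13 between treated and untreated mutants. Mcu, of the mitochondrial calcium channel, stood at 0.38 ± 0.11 in untreated mutants.

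Markers of other cells moved with the arrays. The mean of 9 Kupffer cell and macrophage markers ran from -1.66 to 0.98 on untreated and from -1.36 to 2.10 on treated arrays. It was lowest on replicate 3 of both groups, where the member median was highest. It was highest on untreated replicate 1 and treated replicate 4, while the member median was lowest on replicate 2. Of these markers 8 of 9 were above 0 between treated and untreated mutants. The means of endothelial, stellate, lymphocyte and erythroid markers were also lowest on replicate 3 of both groups. Those of hepatocyte, cholangiocyte, muscle, brown adipocyte and pancreas markers were not. The mean of 8 hepatocyte markers ran from -0.28 to 0.32 on untreated and from -0.26 to 0.17 on treated arrays, and 4 of 8 lay above 0 between the groups. Muscle markers, of which 10 were measured, had means between -0.14 and 0.061 on all arrays. The part of cell makeup in the members' shift was not tested. Without both arrays of number 3 the members' median between treated and untreated mutants was 0.114, with 69 of 82 above 0, and 0.049 in treated mutants over wild type, with 57 above 0.

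The reading of the swapped arrays decides the pattern. The dye coefficient, a term of opposite sign on swapped arrays, lay below 0 for 56 of 82 members, with a median of -0.067 against -0.015 for all named genes. It passed for 4 members, Atp5j, Ndufb6, Ndufa8 and Atp5b, at an adjusted p under 0.05 in limma, where the background was 1.94%. With the wild type number as a replicate block it passed for 2. Atp5j, a stalk subunit, read -0.48, -0.44, 0.74 and 0.41 on untreated and -0.08, -0.62, 0.72 and 0.65 on treated arrays, a dye coefficient of -0.52 (adjusted p = 0.0146). Its sign followed the dye in both groups. If the swapped arrays had not been turned before deposit, this coefficient is the mean change of both mutant groups over wild type. Members over wild type then had medians of -0.074 in untreated and -0.065 in treated mutants, with 31 and 26 of 82 above 0, and the treated over untreated median was 0.005 with 42 above 0. In that reading no member passed in any of the 3 comparisons. The mean change of both groups, which is the dye coefficient above, would then pass for the 4 members named. An unadjusted p under 0.05 was then found in untreated mutants for 4 members above 0 (background 5.77%) and 10 below (4.35%), and in treated mutants for 3 above (5.38%) and 7 below (3.77%). Atp5j stood at -0.52 in both groups then, with unadjusted p of 0.00135 and 0.00132 and adjusted p of 0.140 and 0.180. Over all 4 numbers the higher values of treated mutants thus hold in the deposited reading alone. Numbers 1 and 2 were not swapped, and their treated over untreated medians of 0.12 and 0.19 are the same in both readings. The medians of numbers 3 and 4, 0.24 and 0.047 as deposited, change sign when turned.

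**Figure D4:**
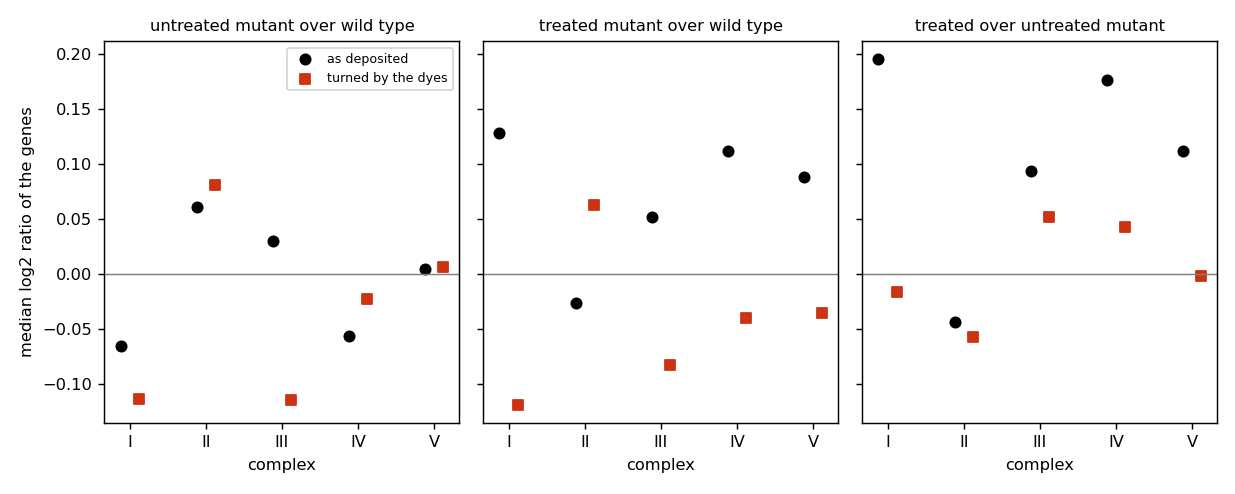
Median log2 ratio of the genes of each complex (vertical axis) in the 3 comparisons, with values as deposited (black circles) and with the swapped arrays turned by the dyes (red squares). In the treated over untreated comparison the complex I median is 0.196 as deposited and -0.017 turned.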

How the data were processed

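The authors deposited log ratios of 45220 features on 8 two-colour arrays, read here as log2 values. limma is the tool named, per the submitters' processing notes, with no role or version. The sources used here give no background correction, normalization, base or direction. By the platform annotation 33653 features had 1 symbol, 56 had several and 11511 had no symbol. Entrez numbers of 33517 features were found in RefSeq genes of GRCm38.p6, with 0 symbols changed. Features of a gene were averaged (19087 genes). lmFit and eBayes of limma 3.58.1 (R 4.3.3) were fitted on all genes and 8 arrays. Coefficients were the group means and a dye effect, which left 5 residual degrees of freedom. The fit was tested on simulated data with independent noise. An added change of 0.5 passed for 18% of changed genes in treated mutants over wild type and 2% in treated over untreated. The fitted change of every member was smaller than 0.5, so the lack of passing members says little about small changes. p-values were adjusted by Benjamini-Hochberg over all genes at 0.05. Values per array are as deposited. The precision is limited by 4 arrays per group.

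Members, lists, motifs and alternatives were chosen with earlier results of these data known. Named were, per comparison, the 6 members of smallest p in each direction, the highest and lowest of each complex, fixed core subunits and isoform sets, the leading gene of each list, and Wrn. Other genes were named after their values had been seen. Arrays of the same replicate number name the same wild type animal number in the labels, which was read as pairing them. Deviations from group means of such arrays correlated at 0.381, 0.324, 0.514 and 0.341, and at 0.003, 0.032, 0.243 and 0.203 after the dye coefficient. Alternatives are listed in the closing section. The series design calls the replicates independent biological ones.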

Additional observations from a re-analysis of the deposited data

Results flagged for a closer look

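Among 106 groups of 4 values tested for an isolated sample, 3 had one, and chance gives about 1 in 20. Atp5g3 read 0.71 on untreated replicate 1, far above the other untreated arrays. Uqcr11 read -0.63 on untreated replicate 2, far below the others. Uqcrfs1 read 0.39 on untreated replicate 3, far above the others. Atp5d lay below 0 on all untreated arrays and above 0 on all treated ones. Its difference of 0.335 had an unadjusted p of 0.0211 and an adjusted p of 0.974 in limma. With the swapped arrays turned it was -0.008 (unadjusted p = 0.96).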

How the results depend on the processing

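Leaving out arrays, dropping the dye coefficient, taking the median of features, scaling the arrays, robust moderation, testing each feature alone and the replicate block called 0 members in the 3 comparisons, as did turning the swapped arrays. With the replicate block the median of treated over untreated stayed at 0.142 and no call of a member in these comparisons changed, while the dye coefficient passed for 2 members in place of 4. Turning the swapped arrays by the dyes gave medians of -0.065 for treated mutants over wild type and 0.005 for treated over untreated, with 70 of 141 values of named members on the other side of 0. It called 9 genes in untreated and 10 in treated mutants over wild type, and the dye coefficient then passed for 1 gene and 0 members. Leaving out 1 array or both arrays of a number, the genes called ran from 0 to 15 in untreated and from 0 to 8 in treated mutants over wild type. The dye coefficient then passed for 17 to 527 genes and 0 to 2 members, and for 921 features tested alone. The causes were not tested. Leaving out arrays, the member median ran from -0.07 to -0.006 in untreated mutants, from 0.049 to 0.152 in treated mutants and from 0.091 to 0.204 between them. Features at background could not be left out, since no intensity is given, and single genes were not recomputed for features tested alone.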
